A study of Homo sapiens with 25 samples.

Results

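The messages of the hnRNP and SR splicing factors were followed in RNA that was pulled down with mCherry-IGF2BP1, an mRNA-binding protein fused to a red fluorescent tag. They were chosen by name, as the protein-coding genes whose symbol starts with HNRNP, is SRSF followed by a number, or is TRA2A or TRA2B, which gave 41 genes of the 20044 protein-coding genes counted. The libraries came from RNA immunoprecipitation sequencing (RIP-seq) in HCT116, a human colorectal carcinoma cell line. All lines with the fusion were knockouts of IGF2BP2 and IGF2BP3 that carry Tet-OsTIR1-PURO, and each expressed IGF2BP1 as wild-type (WT), S181E, Y396E or RQ. S181E and Y396E each carry a glutamate at a phosphorylation site of a disordered linker, which mimics phosphorylation, and RQ has glutamine in place of arginines of an RGG motif in the first linker. Cells of each line received PBS (control) or 500 µM sodium arsenite for 2 h. Each line and treatment gave 3 libraries, from dishes plated and grown independently, except RQ in arsenite with 2 libraries. The knockouts started from single-cell clones, and the fusions, driven by the hPGK promoter, were introduced by lentivirus and sorted within a narrow gate of mCherry, so that each line is 1 sorted population and line and mutation cannot be told apart. Parental HCT116 cells, which have no fusion, gave 1 pull-down library for each treatment as the background of the method.

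Heterogeneous nuclear ribonucleoproteins (hnRNPs) coat nascent transcripts and often act as splicing silencers, while SR proteins, named for their stretches of serine and arginine, bind exonic enhancers and recruit the spliceosome. TRA2A and TRA2B are SR-like proteins related to the fly sex-determination factor Transformer-2. Many of these genes limit their own output by including a poison exon that sends the message to nonsense-mediated decay, and their mature messages reach the cytoplasm, where IGF2BP1 holds its targets through KH domains that favour short CA-rich elements.

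IGF2BP1 itself checked the labels for the presence of the fusion only, not for the mutation or the treatment. It had 0 counts in both parental libraries and between 60.9 and 70.1 CPM (counts scaled to library size by TMM factors) in the WT control libraries, and it was present in all 23 mCherry libraries. In control its level was above all WT libraries in RQ, at 103 to 123 CPM, and in Y396E, at 71.4 to 109 CPM. In arsenite it was at 37.2 to 42.4 CPM in WT, and again without overlap at 79.6 to 81.7 CPM in RQ and 52.0 to 52.3 CPM in Y396E. The S181E libraries overlapped those of WT in both treatments. These counts include the fusion's own message. The 23 libraries with the fusion held 22246381 to 60273548 counts. The parental arsenite library held 18942497 counts and the parental control library 1238013, in which 40.9% of the 8734 tested genes were at 0. The epithelial markers EPCAM, CDH1, KRT8, KRT18, KRT19 and CLDN4 were read in all 23 mCherry libraries, and the leukocyte marker PTPRC in none. Of the other markers of blood, endothelial and connective tissue cells, COL1A1 was at 1.58 to 13.4 CPM in these 23 libraries. CD3E, PECAM1, VWF and COL3A1 were at or below 1.42 CPM there. The parental libraries differed, with 36 counts of PECAM1 in control and 0 in arsenite. They held 0 counts of COL1A1 and VWF in control, and 759 and 95 in arsenite.

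Of the 41 messages, 32 passed the filter for a test, above 10 CPM in 12 or more of the 23 libraries with the fusion. They were 19 hnRNPs, 11 SR factors and both TRA2 genes. The other 9 were not tested. HNRNPCL1, HNRNPCL2, HNRNPCL3, HNRNPCL4, HNRNPA1L2 and the readthrough gene HNRNPUL2-BSCL2 had 0 reads in all 23 libraries, SRSF12 had 31 reads in 10 libraries, and HNRNPA1L3 had 354 reads. HNRNPUL2 stayed just under the filter, with group means of 7.64 to 11.8 CPM, and it overlaps the readthrough gene, so reads on their shared exons belong to neither by the counting rule. HNRNPA1 has 74 annotated pseudogenes, HNRNPA3 16, HNRNPC 9, and HNRNPK and SRSF3 have 5 each, so the counts of these genes are uncertain where reads could map to several copies.

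Short stretches of the 3' UTRs are shown for the messages on which the comparisons turn, because CAU (CAT in the genome) is a core of the elements that IGF2BP1 favours. For each gene this is the 30-base window with the most CAT on the transcribed strand, taken from the Ensembl canonical transcript (GENCODE release 44), in hg38 coordinates and read 5' to 3', with CAT in capitals. The first 4 were the messages with the lowest Y396E over WT values in arsenite, the next 3 had the largest gain with arsenite, and the last 2 fell with arsenite in WT.
TRA2B, chr3:185917226-185917255, minus strand: cgttttcctccagtcCATgaaaCATacCAT
SRSF6, chr20:43463807-43463836, plus strand: CATcCATgaaactagggataaaaCATgCAT
HNRNPUL1, chr19:41306718-41306747, plus strand: ggcttccttcccctcCATagggccaggCAT
SRSF10, chr1:23971102-23971131, minus strand: CATggtCATttttaggCATgtatCATtCAT
HNRNPM, chr19:8488995-8489024, plus strand: atgactggggttcCATttgactgtttgCAT
HNRNPA2B1, chr7:26192236-26192265, minus strand: gttaaggaaactcttatctcagtCATgCAT
HNRNPH1, chr5:179614479-179614508, minus strand: acactgttttggatgCATgttgaaagaCAT
SRSF9, chr12:120461861-120461890, minus strand: aaaaaactaCATaatttctaccagggcCAT
SRSF8, chr11:95068461-95068490, plus strand: tgtcaagaCATgcttcaaCATtgccttCAT
The SRSF10 window held 5 CAT, that of SRSF6 held 4, those of TRA2B and SRSF8 held 3, and the other windows held 2. At least 1 CAT was found in 38.0% of all 30-base windows in the 3' UTRs of the tested genes, at least 2 in 7.73%, at least 3 in 0.963%, at least 4 in 0.0828% and at least 5 in 0.00689%. The windows were picked for their CAT, so the counts describe them and say nothing about binding. Over whole transcripts the 32 messages had a median of 15.0 CAT per kb, beside 15.3 over all 8734 tested genes, with HNRNPM at the top (28.7 per kb) and SRSF5 at the bottom (7.35 per kb). GGAC, a sequence of the m6A consensus that IGF2BPs are known to read, was found 2.57 times per kb at the median of the 32 messages and 3.55 times per kb over all tested genes. The 32 messages had a median GC content of 41.7% beside 48.2%, coding sequences with a median of 1055 bases beside 1461, and 3' UTRs with a median of 1882 bases beside 1534.

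The hnRNP and SR messages held a smaller share of the WT control libraries than of the parental libraries. The 41 genes together held 0.222 to 0.240% of the protein-coding counts in the 3 WT control libraries, beside 0.904% in the parental control library and 1.02% in the parental arsenite library. Per kb of exon, the highest was HNRNPUL1, a nuclear protein related to hnRNP U, at 105 ± 16.0 CPM per kb (SD, n = 3), followed by the SR factor SRSF9 at 61.6 ± 4.18 and HNRNPA1, one of the most abundant hnRNPs of the nucleus, at 48.9 ± 6.82. The lowest were HNRNPLL, a paralogue of HNRNPL, at 2.94 ± 1.23 CPM per kb, HNRNPA0 at 3.48 ± 1.16 and HNRNPD, which binds AU-rich elements, at 4.60 ± 1.25. The order within each of these trios has no test, and the ranges of the lowest 3 overlap within their SD.

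The parental library shows what the beads hold without the fusion. The deeper parental arsenite library was used for both treatments of the tagged cells, since the parental control library had few counts, so for control cells the treatments of the 2 libraries differ. The WT control mean was below the parental arsenite level for 30 of the 32 messages, where 45.1% of all tested genes were below it, and the median ratio was 0.373 for the 32 messages and 1.12 for all genes with a parental count. In arsenite the WT mean was below the parental level for 25 of the 32 (all tested genes 43%), with a median ratio of 0.630 beside 1.14. HNRNPUL1 stood highest in both, at 2.02 times the parental arsenite level in WT control and 2.94 times in WT arsenite, and it was the 1 message of the 32 at 2-fold or more. Next in WT arsenite came SRSF10, an SR factor that represses splicing when dephosphorylated, at 1.52 times, HNRNPL, which binds CA repeats, at 1.49 times, HNRNPA3 at 1.49 times and TRA2B at 1.40 times. SRSF3 was at the bottom with 0.257 times the parental level. No message of the 32 reached 4-fold over the parental library in arsenite, where 9.18% of all tested genes did. Against the shallow parental control library 5 of 32 reached 4-fold in WT control (HNRNPA0, HNRNPD, HNRNPH2, HNRNPH3 and SRSF10), where 49% of all tested genes did, and none of the 32 did so against the parental arsenite library (11.7% of all). HNRNPH2 and HNRNPH3 had 0 counts in the parental control library, so they were at least 8.44-fold and at least 9.60-fold higher in WT control against a floor of 3 counts in that library. With 1 parental library for each treatment, these ratios have no replicate check on the parental side, and a library without the fusion holds unspecific RNA at a level that is relative to its own total.

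With arsenite the hnRNP and SR messages took a larger share of the pull-down in every line. The share of protein-coding counts on the 41 genes went from 0.222 to 0.240% in WT control to 0.412 to 0.437% in WT arsenite. In S181E it went from 0.291 to 0.309% in control to 0.457 to 0.529% in arsenite. Y396E moved from 0.306 to 0.351% in control to 0.500 to 0.528%, and RQ from 0.242 to 0.287% to 0.425 and 0.439%. The control and arsenite libraries did not overlap in any of the 4 lines. In the parental cells the share was 0.904% in control and 1.02% in arsenite, with 1 library each. No total RNA library was analysed here, so a larger share of a message bound by IGF2BP1 and more of that message in the cell cannot be told apart.

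**Figure D1:**
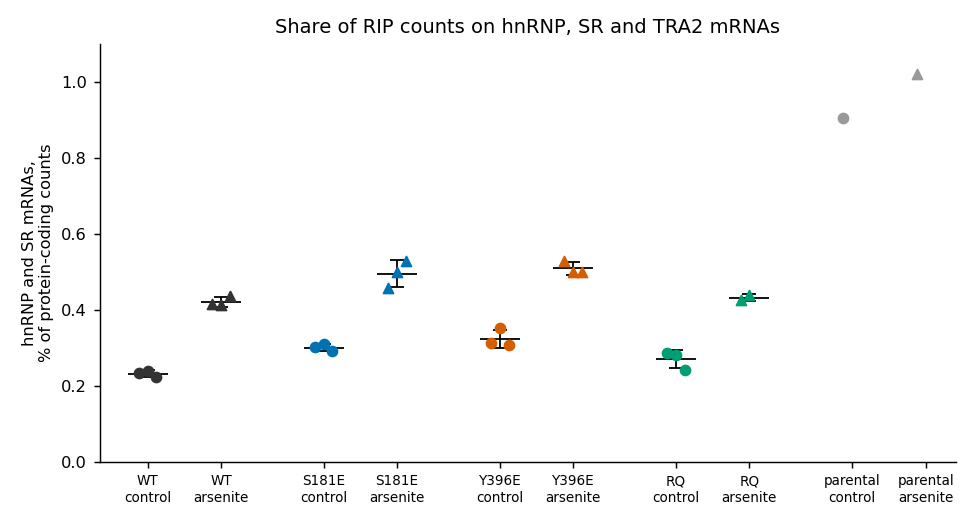
Percent of protein-coding counts that fell on the 41 hnRNP, SR and TRA2 genes, with 1 point per library, circles for control and triangles for arsenite, and the mean and SD in black for groups of 2 or 3 libraries. The 3 WT control libraries sat between 0.222 and 0.240%, the 3 WT arsenite libraries between 0.412 and 0.437%, and both parental libraries above all others.

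By gene, 25 of the 32 messages rose with arsenite in WT and 2 fell, where 35.4% of the 8734 tested genes rose and 31.8% fell. The median log2 fold change was 0.82 over the 32 messages and 0.034 over all tested genes. Of the 19 hnRNPs 16 rose and none fell, and of the 13 SR and TRA2 messages 9 rose and 2 fell. The other lines gave like counts, with 24 up and 3 down in S181E (33.3 and 34.6% of all genes), 25 up and 1 down in Y396E (31.3 and 33.8%) and 20 up and 2 down in RQ (32.4 and 32.3%). The medians over the 32 messages were 0.67 in S181E, 0.64 in Y396E and 0.60 in RQ. The counts depend on the scale. With TMM factors from 2869 genes no higher than in the parental library, the median of all tested genes in WT went to -0.31. There 19 messages rose and 3 fell, where 1950 of the 8734 tested genes rose and 4033 fell. The distance of the messages from the median of all genes was 0.78 with either set of factors. New factors move every gene of a comparison nearly alike, so this distance could hardly change and does not test the rise. Under the same factors 14 rose and 6 fell in S181E, 13 rose and 6 fell in Y396E and 14 rose and 5 fell in RQ. So fewer of the 32 were called to rise than not in each mutant line. Of the 8734 tested genes 1679 rose and 4439 fell in S181E, 1417 and 4591 in Y396E and 1767 and 4057 in RQ. The WT log2 fold change went with the ratio of the S181E and RQ control libraries to the parental arsenite library. Spearman's rho was -0.45 over the 32 messages and -0.56 over 8700 tested genes with a parental count. At a ratio of at most 1/2 the median was 0.95 over 20 messages and 0.82 over 1719 tested genes. Above it the medians were 0.44 over 12 messages and -0.14 over 6981 tested genes. The part of unspecific RNA in the rise was not tested.

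HNRNPM, whose product binds GU-rich sequence, had the largest rise. It was at 18.8, 13.6 and 15.5 CPM in the WT control libraries and 52.2, 54.1 and 71.8 CPM in WT arsenite. Every arsenite library lay above every control library, and the difference was called (log2 fold change 1.87 ± 0.16 SE, adjusted p = 8.96e-10). It also rose in S181E, from 17.8, 21.3 and 16.0 to 60.7, 74.5 and 86.9 CPM (log2 fold change 1.99), and in Y396E, from 23.6, 25.9 and 19.3 to 78.3, 77.9 and 77.4 CPM (log2 fold change 1.77). In the parental arsenite library HNRNPM was at 194 CPM, above all libraries of the tagged lines.

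HNRNPA2B1, which sorts RNA in the cytoplasm as well as binding pre-mRNA, was at 71.4, 81.7 and 83.1 CPM in WT control and at 248, 281 and 303 CPM in WT arsenite (log2 fold change 1.81 ± 0.15 SE, adjusted p = 2.52e-10). HNRNPH1, which binds runs of guanine, went from 42.4, 53.6 and 45.7 to 156, 161 and 176 CPM (log2 fold change 1.79 ± 0.14 SE, adjusted p = 9.48e-11). Neither gene's groups overlapped in any line. In S181E, Y396E and RQ the log2 fold changes of HNRNPA2B1 were 1.96, 1.63 and 1.74, and those of HNRNPH1 were 1.75, 1.76 and 1.74. In RQ the third of the largest rises was that of TRA2A, from 14.4, 13.9 and 13.5 to 43.2 and 44.9 CPM (log2 fold change 1.65 ± 0.20 SE, adjusted p = 2.16e-07), and TRA2A also rose in the other lines.

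The other hnRNPs had smaller values in WT. HNRNPK, a KH-domain protein that binds poly(C), rose by 1.58 in WT on the log2 scale, HNRNPU, a scaffold protein of the nuclear matrix, by 1.58, and HNRNPD by 1.70. HNRNPA1 rose by 0.60 and HNRNPA3 by 0.80. HNRNPC, which packages nascent RNA through uridine tracts, changed by less than the 20% set for a call, with log2 fold change 0.20 ± 0.085 SE, adjusted p = 0.037. HNRNPA0 and HNRNPH2 were not called in WT, with log2 fold changes of -0.48 and 0.11 and overlapping groups. Among the SR factors, SRSF2, a protein of nuclear speckles that binds exonic enhancers, rose by 1.29, SRSF6 by 1.18, SRSF7 by 1.12, and SRSF3, an adaptor for mRNA export, by 0.47. SRSF1, the founding SR protein, and SRSF4 were not called in WT, at 0.081 and -0.022.

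SRSF8 and SRSF9 went the other way. SRSF8, an intronless relative of SRSF2, was at 45.0, 47.3 and 46.8 CPM in WT control and at 36.5, 37.4 and 37.3 CPM in WT arsenite (log2 fold change -0.33 ± 0.11 SE, adjusted p = 0.0078). It fell in all 4 lines without overlap between the groups, from 51.2, 43.2 and 46.5 to 30.9, 29.2 and 31.6 CPM in S181E (log2 fold change -0.64), from 42.6, 45.4 and 42.8 to 34.9, 31.2 and 28.8 CPM in Y396E (-0.46) and from 54.8, 62.4 and 51.8 to 37.2 and 41.0 CPM in RQ (-0.53). SRSF9, which has the shortest transcript of the 32, was at 81.6, 73.3 and 83.4 CPM in WT control and 53.8, 61.7 and 63.0 CPM in WT arsenite (log2 fold change -0.43 ± 0.11 SE, adjusted p = 0.0011). In S181E it went from 75.1, 83.5 and 67.8 to 55.0, 66.7 and 65.7 CPM (log2 fold change -0.30 ± 0.11 SE, adjusted p = 0.016), and in Y396E and RQ it was not called, at -0.22 and -0.21. SRSF1 fell in S181E, from 46.3, 58.3 and 52.7 to 38.4, 45.1 and 44.1 CPM (log2 fold change -0.33 ± 0.14 SE, adjusted p = 0.037), and in RQ, from 40.9, 52.2 and 52.9 to 32.9 and 33.9 CPM (log2 fold change -0.54 ± 0.15 SE, adjusted p = 0.0036). The S181E calls of SRSF1 and SRSF9 were lost without S181E arsenite replicate 1, at -0.26 and -0.22, and without S181E control replicate 2, at -0.25 and -0.23. That of SRSF1 was also lost without S181E control replicate 3, at -0.32, and without S181E arsenite replicate 3, at -0.35.

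**Figure D2:**
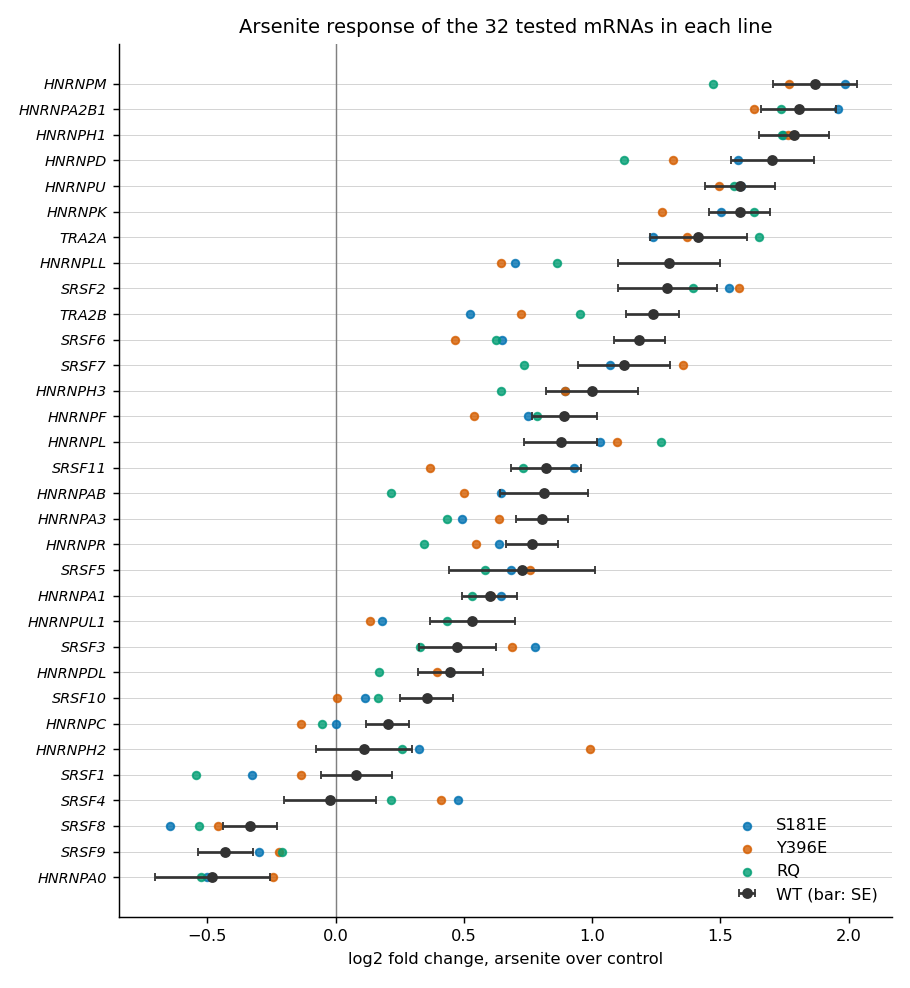
Log2 fold change of arsenite over control for the 32 tested messages, with WT in black (bar: SE) and the mutant lines as coloured points. HNRNPM, HNRNPA2B1 and HNRNPH1 lie at the top with WT values of 1.87, 1.81 and 1.79, and HNRNPA0, SRSF9 and SRSF8 at the bottom.

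Other splicing genes were counted in the same way. Of 11 tested hnRNPs with other symbols 10 rose with arsenite in WT and 1 fell. The 1 that fell was PTBP3, a relative of the polypyrimidine tract binding protein (log2 fold change -0.36 ± 0.098 SE, adjusted p = 0.0029). Of 22 tested SR-related proteins and SR protein kinases 16 rose and 2 fell, with the speckle protein SRRM2 highest (log2 fold change 1.66 ± 0.17 SE, adjusted p = 8.96e-09) and TNPO3, the importin that carries SR proteins into the nucleus, lowest (log2 fold change -0.46 ± 0.084 SE, adjusted p = 4.10e-05). Of 53 tested core spliceosome genes 33 rose and 13 fell, led by the helicase DHX15 (log2 fold change 2.09 ± 0.10 SE, adjusted p = 1.18e-13) at one end and LSM3 (log2 fold change -2.60 ± 0.16 SE, adjusted p = 1.88e-12) at the other. The medians of the 3 lists were 0.99, 0.80 and 0.94. Of all tested genes 35.4% rose and 31.8% fell.

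In control cells, some of the messages were higher in the mutants than in WT. The 3 mutants were each compared with the same 3 WT libraries, so a WT library that stands apart moves all of them. In S181E 7 of the 32 messages were higher and none lower, where 12.8% of all tested genes were higher and 8% lower. In Y396E 12 were higher and 1 lower (16.2 and 12.7% of all genes), and in RQ 3 were higher and 1 lower (3.51 and 2.83%). The median log2 fold changes over the 32 messages were 0.19, 0.22 and 0.10, beside 0.053, 0.052 and 0.032 over all tested genes. In a model of the 2 groups compared alone, the counts of higher messages fell to 1 in S181E, 4 in Y396E and 0 in RQ. Of the 8734 tested genes 171, 540 and 4 were higher there. With total counts in place of TMM the counts of messages rose to 13, 22 and 7, and those of all tested genes to 2432, 3668 and 764.

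TRA2B, which activates exons with GAA-rich enhancers, had the largest value in S181E. It was at 119, 94.2 and 88.8 CPM in the WT control libraries and at 175, 167 and 152 CPM in S181E control (log2 fold change 0.72 ± 0.10 SE, adjusted p = 2.99e-05). The lowest S181E library lay above the highest WT library. TRA2B was also higher in RQ control, at 139.5, 126 and 132 CPM (log2 fold change 0.39 ± 0.10 SE, adjusted p = 0.024), while the Y396E control libraries overlapped those of WT, at 101, 91.4 and 99.4 CPM (log2 fold change -0.037).

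SRSF6, an SR factor of exonic enhancers, was at 109.8, 89.6 and 108 CPM in WT control and at 145, 146 and 144 CPM in S181E (log2 fold change 0.51 ± 0.099 SE, adjusted p = 7.97e-04). In Y396E it was at 119, 123 and 125 CPM (log2 fold change 0.27 ± 0.099 SE, adjusted p = 0.042). SRSF1 was at 41.9, 34.0 and 32.1 CPM in WT control and 46.3, 58.3 and 52.7 CPM in S181E (log2 fold change 0.55 ± 0.14 SE, adjusted p = 0.0069), again without overlap. The other messages called higher in S181E were HNRNPLL, HNRNPA3, SRSF10 and HNRNPC, with log2 fold changes of 0.69, 0.39, 0.33 and 0.29. Without WT control replicate 3 the count in S181E was 4 in place of 7, and without WT control replicate 1, 2 messages were called lower. Counts with a library left out are given here and below without those over all tested genes in the same fits.

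In Y396E control the highest values were those of hnRNPs. HNRNPAB, a relative of HNRNPD, was at 57.5, 61.5 and 35.6 CPM in WT and 84.6, 99.2 and 87.5 CPM in Y396E (log2 fold change 0.82 ± 0.17 SE, adjusted p = 9.38e-04). HNRNPLL, known for the splicing of CD45 in T cells, was at 13.4, 21.9 and 9.64 and 24.0, 27.6 and 24.2 CPM (log2 fold change 0.77 ± 0.20 SE, adjusted p = 0.0055), and HNRNPF, a relative of HNRNPH1, at 109.8, 129 and 85.5 and 152, 184 and 162 CPM (log2 fold change 0.63 ± 0.13 SE, adjusted p = 6.12e-04). In each of these genes every Y396E library lay above every WT library, and WT replicate 3 was the lowest of the WT libraries. HNRNPH2 was the 1 message called lower, at 15.3, 20.3 and 15.7 CPM in WT and 12.4, 10.5 and 9.05 CPM in Y396E (log2 fold change -0.66 ± 0.19 SE, adjusted p = 0.011), a call that was lost without WT control replicate 2 or without Y396E control replicate 3. The other messages called higher were HNRNPD, HNRNPM, SRSF11, HNRNPK, HNRNPA2B1, SRSF1, HNRNPC, HNRNPR and SRSF6, with log2 fold changes of 0.27 to 0.55. Without Y396E control replicate 2 the count higher was 6 in place of 12.

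RQ gave the fewest calls in control. HNRNPC was at 269.7, 268 and 243 CPM in WT and 361, 336 and 289 CPM in RQ (log2 fold change 0.34 ± 0.085 SE, adjusted p = 0.021), and HNRNPA3 at 140.0, 135 and 172 and 189, 182 and 191 CPM (log2 fold change 0.33 ± 0.099 SE, adjusted p = 0.048). Neither gene's groups overlapped. SRSF4 was called lower with overlapping groups, at 21.2, 37.6 and 36.9 CPM in WT and 22.3, 19.6 and 19.7 CPM in RQ (log2 fold change -0.63 ± 0.18 SE, adjusted p = 0.040). The count higher was 1 without RQ control replicate 1, RQ control replicate 2 or WT control replicate 3, and no message was called lower without any 1 of the RQ control libraries or without WT control replicate 2 or 3. Each of the 4 calls was lost with some library left out. HNRNPA3 lost its call without any 1 of the RQ control libraries or without WT control replicate 1 or 2, HNRNPC without RQ control replicate 1 or 2 or WT control replicate 3, and TRA2B without RQ control replicate 1 or WT control replicate 2 or 3. Without RQ control replicate 1 the 1 message called was none of these. The IGF2BP1 message was higher in RQ and in Y396E than in WT (above), and its part in the differences of either line was not tested.

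In arsenite, the model of all groups made calls among these messages in Y396E. In S181E and in RQ it called none of the 32 in either direction by edgeR's test. Of all tested genes 2.2% were called higher and 5.34% lower in S181E, and 0.286 and 0.218% in RQ. In each, 1 of the 32 was at an unadjusted p under 0.05, and the count over all tested genes is not given. The log2 fold changes of the 32 messages ran from -0.28 to 0.31 in S181E and from -0.39 to 0.31 in RQ, which has 2 libraries. In edgeR's model of the 2 groups compared alone, 2 were higher and 1 lower in S181E and 2 were lower in RQ. Of the 8734 tested genes that model called 851 higher and 1031 lower in S181E and 548 lower in RQ. DESeq2's Wald test gave no call in S181E and 1 lower in RQ. Over all tested genes it gave 307 higher and 554 lower in S181E and 76 lower in RQ. In Y396E 5 messages were higher and 2 lower (13.1 and 19.4% of all tested genes), with a median of 0.16 over the 32 beside 0.0074 over all genes.

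The messages lower in Y396E were TRA2B and SRSF6. TRA2B was at 256, 242 and 222 CPM in WT arsenite and at 164, 159 and 158 CPM in Y396E arsenite (log2 fold change -0.55 ± 0.10 SE, adjusted p = 2.33e-04). SRSF6 was at 253, 218 and 233 CPM in WT and 187, 150.2 and 169 CPM in Y396E (log2 fold change -0.45 ± 0.098 SE, adjusted p = 0.0013). In both genes every Y396E library lay below every WT library. In S181E arsenite both overlapped the WT values, at 258, 239.8 and 226 CPM for TRA2B and 245, 211 and 239.8 CPM for SRSF6. In RQ arsenite TRA2B was at 259 and 255 CPM and SRSF6 at 187 and 171 CPM, below all WT libraries but not called (log2 fold change -0.38 ± 0.11 SE, adjusted p = 0.18). HNRNPUL1 was at 672, 596 and 715 CPM in WT and 474, 441 and 555 CPM in Y396E, without overlap and not called (log2 fold change -0.40 ± 0.17 SE, adjusted p = 0.066).

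The messages higher in Y396E arsenite were HNRNPAB, SRSF7, SRSF3, HNRNPM and SRSF9. HNRNPAB was at 85.6, 93.8 and 94.9 CPM in WT and 131, 117 and 134 CPM in Y396E (log2 fold change 0.51 ± 0.17 SE, adjusted p = 0.023). SRSF7, which like SRSF3 links splicing to export, was at 87.2, 101 and 96.4 and 135, 129 and 125 CPM (log2 fold change 0.49 ± 0.17 SE, adjusted p = 0.034), and SRSF3 at 116, 124 and 136 and 180.5, 157 and 164 CPM (log2 fold change 0.45 ± 0.15 SE, adjusted p = 0.024). No groups overlapped. These calls changed with the library left out. The count higher was 0 without WT arsenite replicate 1 and 1 without Y396E arsenite replicate 1 or 3. It was 2 without WT arsenite replicate 2 or Y396E arsenite replicate 2. Counts over all tested genes in the same fits are not given, so a loss particular to these messages cannot be read from this. The SRSF7 call was lost with any 1 of the 6 libraries left out, at 0.43 to 0.53. The count lower stayed between 2 and 3 over all the libraries left out. The scale of the values also set them, with 0 higher and 5 lower under those TMM factors from low genes. Of the 8734 tested genes 295 were higher and 2923 lower under these factors. Total counts gave 16 higher and 1 lower among the messages, and 2749 higher and 904 lower among all tested genes. TRA2B was called lower under each, and SRSF6 lost its call under total counts, at -0.23.

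**Figure D3:**
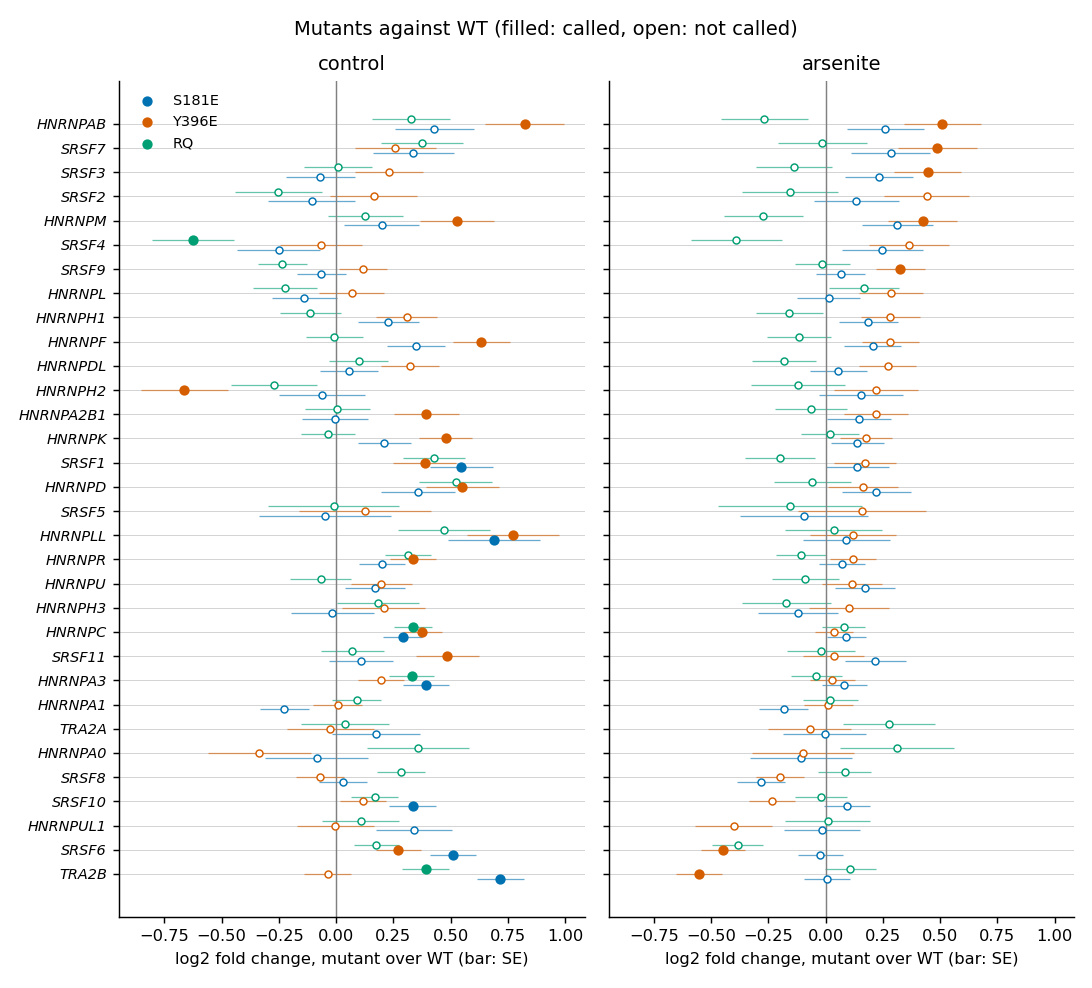
Log2 fold change of each mutant over WT in control (left) and arsenite (right) for the 32 tested messages, sorted by Y396E in arsenite, with bars for the SE and filled points for called messages. TRA2B and SRSF6 lie at the bottom of the arsenite panel for Y396E (-0.55 and -0.45) and at the right of the control panel for S181E (0.72 and 0.51).

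Whether arsenite acted differently in a mutant than in WT was tested by the interaction term. For S181E 1 of the 32 messages was called, TRA2B, where 0.275% of all tested genes were called lower and 0.114% higher. TRA2B rose with arsenite by 1.24 in WT and by 0.52 in S181E on the log2 scale, a difference of log2 fold change -0.71 ± 0.14 SE, adjusted p = 0.033. The libraries of both lines overlapped in arsenite and did not overlap in control. For Y396E 1 message was called, SRSF6, where 2.4% of all tested genes were called lower and 0.447% higher. SRSF6 rose by 1.18 in WT and by 0.47 in Y396E, a difference of log2 fold change -0.72 ± 0.14 SE, adjusted p = 0.0050. For RQ none was called by edgeR, where 0.0114% of all tested genes were called lower and 0.0572% higher. DESeq2's Wald test called 1 message lower, beside 24 of the 8734 tested genes. By edgeR 6 of the 32 were at an unadjusted p under 0.05, and the count over all tested genes is not given. The TRA2B interaction was lost without S181E control replicate 1, without any 1 of the WT arsenite libraries, and without S181E arsenite replicate 2 or 3, with values of -0.77 to -0.66. It was also lost in a model of the groups compared alone, at -0.66, and under the TMM factors from low genes, at -0.78. The SRSF6 interaction was called with each library left out.

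**Figure D4:**
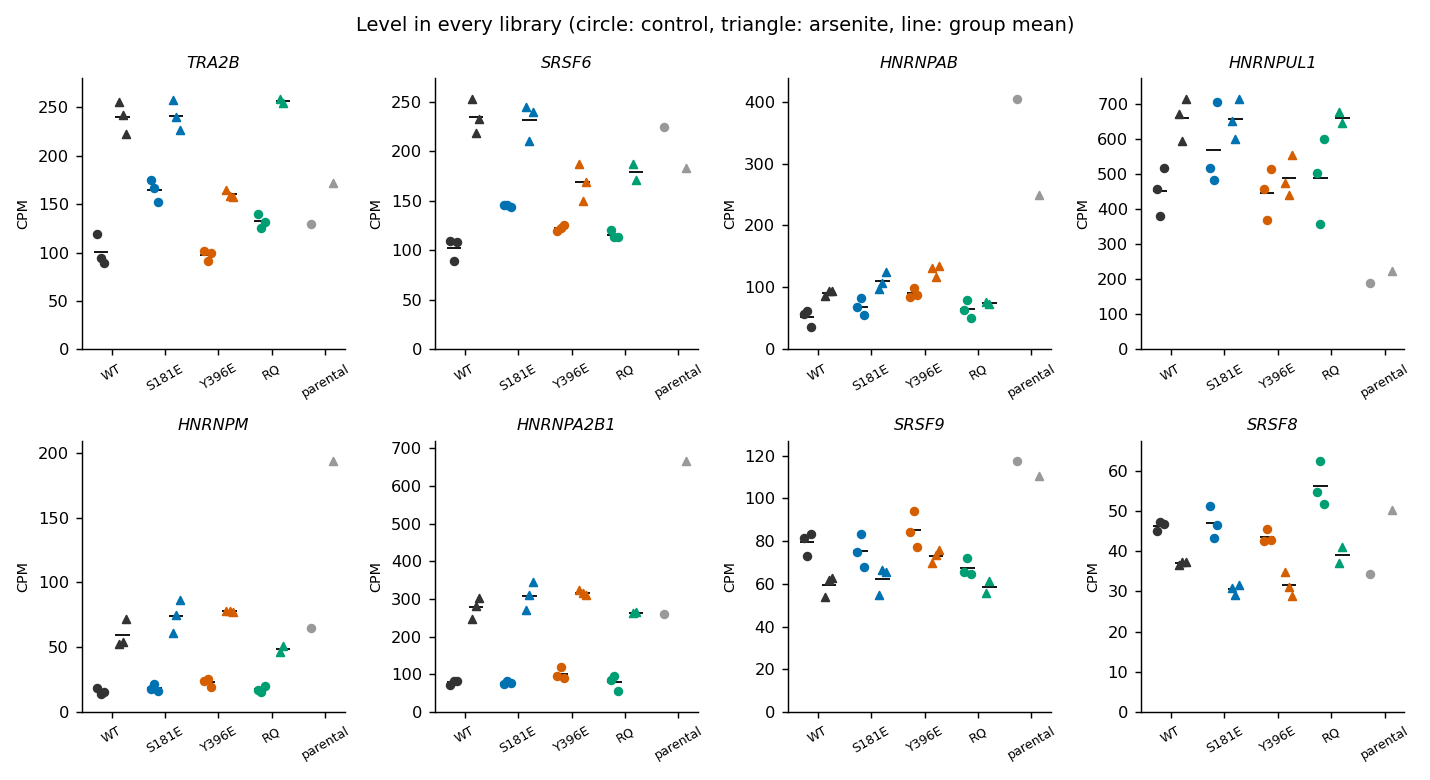
CPM of 8 messages in every library, circles for control and triangles for arsenite, with the group mean as a line and the single parental libraries in grey. TRA2B and SRSF6 in arsenite are lower in Y396E than in WT, HNRNPM and HNRNPA2B1 rise with arsenite in every line, and SRSF8 falls.

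The Y396E difference in arsenite went with the ratio to the parental library. The ratio was taken from the 5 S181E and RQ arsenite libraries over the parental arsenite library, so that it shares no library with the Y396E over WT fold change. The 8 messages with a ratio above 1 were TRA2A, SRSF6, HNRNPLL, TRA2B, HNRNPA3, HNRNPL, SRSF10 and HNRNPUL1. Their log2 fold changes in Y396E had a median of -0.15, and 5 of the 8 were below 0. The 24 messages with a ratio of at most 1 had a median of 0.20, and 2 of them were below 0. Pearson's r was -0.69 and Spearman's rho -0.66 over the 32 messages. Over the 8700 tested genes with a parental count r was -0.48 and rho -0.49, with medians of -0.14 above a ratio of 1 and 0.20 at most 1. HNRNPL went against this order, with a ratio of 1.57 and a log2 fold change of 0.28.

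**Figure D5:**
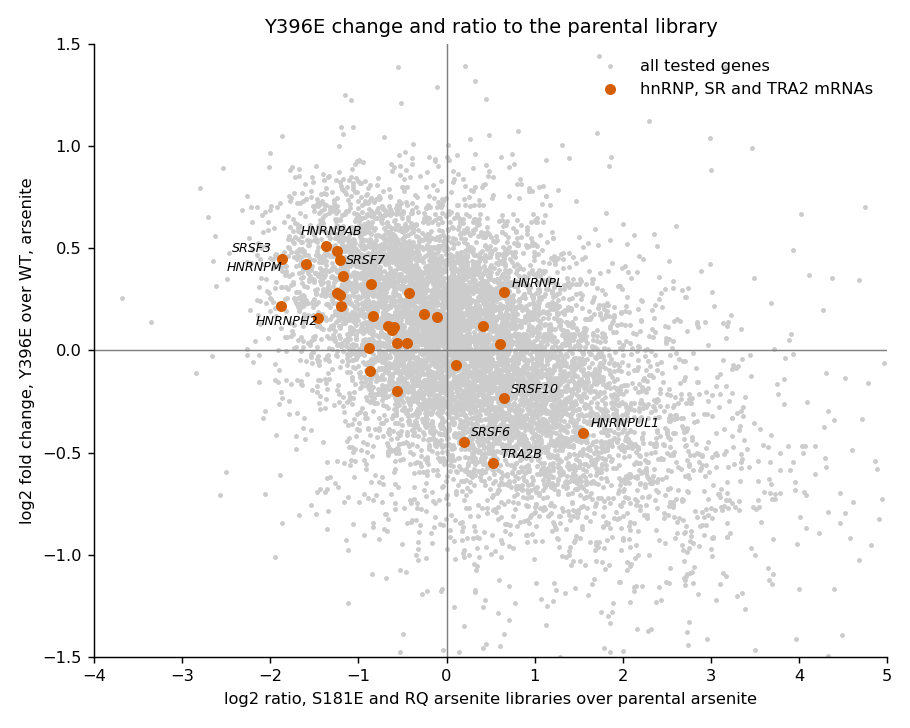
Log2 fold change of Y396E over WT in arsenite against the log2 ratio of the S181E and RQ arsenite libraries to the parental arsenite library, with the 32 messages in orange and all tested genes in grey (31 lie outside the axes). Messages to the right of 0 have a median of -0.15 and those to the left 0.20.

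The length of the 3' UTR went with the same difference. Over the 32 messages Spearman's rho of the 3' UTR length with the Y396E over WT log2 fold change in arsenite was -0.56 and Pearson's r -0.43, and over all 8734 tested genes they were -0.35 and -0.26. With the S181E over WT value in arsenite rho was -0.24 over the messages, and with Y396E over WT in control it was -0.067. CAT per kb had a rho of -0.10 and GGAC per kb of 0.31 with the Y396E value in arsenite. TRA2B and SRSF6 have 3' UTRs of 3157 and 3180 bases, SRSF10 of 6795 and HNRNPUL1 of 1222, while those of HNRNPAB, SRSF9 and HNRNPM have 540, 347 and 260 bases. SRSF3 is higher in Y396E with a 3' UTR of 3611 bases, so length did not order every message. These relations are across genes of the same libraries, and the part of length in the differences was not tested.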

How the data were processed

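RNA was measured by RIP-seq in the 25 libraries described above, and samples were grouped by their titles. The authors aligned single reads of 100 bases to hg38 with STAR 2.7.11b, allowing 2 mismatches, with GENCODE release 46. The values the authors deposited are whole read counts per gene on exons, not normalized, from featureCounts 2.0.6 with the reverse-strand setting. Its defaults leave out reads that map to several places or overlap more than 1 gene, so genes with near-identical copies or overlapping neighbours are undercounted. Symbols and biotypes came from GENCODE release 44 by Ensembl identifier, found for 62541 of 63086 genes.

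The members and the gene lists were chosen with earlier results of these data known. Following the authors' methods, counts of protein-coding genes were scaled by TMM, and the 8734 genes above 10 CPM in 12 or more of the 23 libraries with the fusion were kept. Differences were tested with edgeR 4.0.16 (glmQLFTest, 8 groups, no covariates, all 23 libraries) and adjusted by the Benjamini-Hochberg method over all 8734 genes. Calls were made at an adjusted p under 0.05 where the change exceeded 20%. The sign of a fold change is that of the first-named group over the second, and SE is the standard error of the log2 fold change. No test used the parental libraries. Printed CPM rest on TMM factors over all 25 libraries, and levels per kb divide them by the exonic length. No 2 libraries held identical values. A count of 0 was raised to a floor of 3 counts for a bound, and such floors cover counting error only.

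Alternatives were DESeq2 size factors, total counts, TMM factors from 2869 genes no higher than in the parental arsenite library, DESeq2 1.42.0 with its Wald test, no filter on low counts, only the groups compared, the replicate number as a block, adjusted p alone, enrichment thresholds of 2-fold and 8-fold, and leaving out each library. Same-numbered libraries were taken as pairs where 3 pairs each deviated together with a correlation above 0.1. The S181E and WT arsenite libraries alone passed this rule (0.29 to 0.40). All pairs were positive in some other comparisons too, as in RQ and WT control (0.091 to 0.35) and Y396E and WT arsenite (0.087 to 0.22). The main model had no block, so what replicates share was not taken into account in its tests. Values in every library are given for up to 3 called messages at each end of a comparison whose groups do not overlap. The same holds for up to 2 at each end of an interaction. HNRNPA2B1 and HNRNPH1 are given so in WT alone. The 3 highest and lowest levels per kb of the tested messages are given as mean and SD. For the highest ratios to the parental arsenite library the ratio is given, and for genes at the ends of the further lists the log2 fold change. HNRNPC, SRSF4, HNRNPUL1 and the values of TRA2B and SRSF6 in the other mutants were added after their values were seen. R 4.3.3, Python 3.11.15, pandas 2.3.3 and matplotlib 3.10.9 were used, and the edgeR step was tested on simulated data.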

Additional observations from a re-analysis of the deposited data

Results flagged for a closer look

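The arsenite response of TRA2B differed between S181E and WT, with an interaction of -0.71 on the log2 scale (0.52 in S181E and 1.24 in WT, adjusted p = 0.033, edgeR's quasi-likelihood test). The control libraries of S181E lay above those of WT, and the arsenite libraries overlapped. This call was lost in 6 of the fits with 1 library left out, in a model of the groups compared alone (-0.66) and under the TMM factors from genes no higher than in the parental library (-0.78). The arsenite response of SRSF6 differed between Y396E and WT, with an interaction of -0.72 (0.47 in Y396E and 1.18 in WT, adjusted p = 0.0050). Both differences were found by the test of the interaction itself.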

How the results depend on the processing

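Counts of messages called are given here as they changed by more than 1.5 times, with the count among all 8734 tested genes in brackets. The next counts are under TMM factors from genes no higher than in the parental library. In control 4 (659) were higher in Y396E and 0 (127) in RQ. With arsenite 5 (2923) were lower and 0 (295) higher in Y396E, and 1 (522) was lower in S181E. For arsenite over control 14 (1679) were higher and 6 (4439) lower in S181E. In Y396E 13 (1417) were higher and 6 (4591) lower, and in RQ 5 (4057) were lower. The S181E interaction had 0 (6) lower. With total counts in control, 13 (2432) were higher in S181E and 22 (3668) higher and 0 (485) lower in Y396E. In RQ control 7 (764) were higher and 0 (167) lower. With arsenite 16 (2749) were higher and 1 (904) lower in Y396E, and 1 (2858) fell with arsenite in S181E. The Y396E interaction had 2 (538) lower, and 2 messages reached 4-fold over the parental control library. With only the groups compared, 1 (171) was higher in S181E and 4 (540) higher and 0 (684) lower in Y396E in control. In RQ control 0 (4) were higher and 0 (3) lower. With arsenite 2 (851) were higher and 1 (1031) lower in S181E, and 2 (548) lower in RQ. In WT 1 (2497) fell with arsenite, and the S181E interaction had 0 (0) lower. DESeq2's Wald test gave 1 (76) lower in RQ with arsenite. Its interactions were 2 (75) lower for S181E, 2 (251) lower and 1 (132) higher for Y396E and 1 (24) lower for RQ. With the replicate block, 6 (597) were higher in RQ in control and 1 (92) lower in RQ with arsenite. The interactions had 2 (207) lower for S181E, 4 (639) lower and 1 (171) higher for Y396E and 1 (22) lower for RQ. For S181E and WT with arsenite, where the numbers pair the libraries, the block left 0 (354) higher and 0 (751) lower. The other groups share numbers but did not pass the rule for pairs. At 2-fold 1 message passed in WT arsenite, at 8-fold 2 passed in WT control, and against the parental arsenite library 0 did (11.7% of all tested genes). Shares over all tested genes were not taken at 2-fold, at 8-fold or for 4-fold under total counts. The cause of these changes was not tested beyond what each setting changes by construction.

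With each library left out in turn, the counts in control ran from 4 to 9 higher and 0 to 2 lower in S181E, 6 to 12 higher and 0 to 1 lower in Y396E and 1 to 4 higher and 0 to 1 lower in RQ. In arsenite they ran from 0 to 5 higher and 2 to 3 lower in Y396E and stayed at 0 in S181E and RQ. For arsenite over control they ran from 23 to 25 higher and 2 to 3 lower in WT, 22 to 24 and 1 to 3 in S181E, 23 to 24 and 1 to 2 in Y396E and 18 to 21 and 2 to 3 in RQ. The interactions ran from 0 to 1 lower for S181E and 1 to 2 lower and 0 to 1 higher for Y396E, and 4 to 5 messages passed 4-fold over the parental control library. These ranges are given without the counts over all tested genes in the same fits. Of 37 results for single messages, none changed direction. Of 296 values under other settings 27 lost their call, and of 229 with a library left out 37 did. The 296 include 37 under adjusted p alone, which drops the threshold on the size of the change from the same fit and cannot lose a call. Depth limits the ratios to the parental control library most, where 1 count is 0.675 CPM beside 0.0433 CPM in the parental arsenite library.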

Other observations

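The further lists of splicing genes were also compared between mutants and WT, in the main fit alone. Calls in Y396E over WT with arsenite depend on the scale. Of the 8734 tested genes 1146 were higher in the main fit, 295 under the TMM factors from low genes and 2749 under total counts. Of the 53 tested core spliceosome genes, 20 were higher and 2 lower in Y396E than in WT with arsenite, with a median log2 fold change of 0.39, where 13.1% of all tested genes were higher and 19.4% lower. In control the same comparison gave 13 higher and 2 lower with a median of 0.11 (16.2 and 12.7% of all tested genes). With arsenite 2 of the 53 were higher and none lower in S181E by edgeR's test, and none was called in RQ. Of all tested genes 2.2% were higher and 5.34% lower in S181E, and 0.286 and 0.218% in RQ. Of the 22 SR-related proteins and SR protein kinases, 2 were higher and 4 lower in Y396E than in WT with arsenite. Of the 11 hnRNPs with other symbols 2 were higher and 2 lower. Both of these lists lay near the 13.1 and 19.4% of all tested genes.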
